A study of Mus musculus with 10 samples.

Results

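The septins are a family of GTP-binding cytoskeletal proteins, described here at the RNA level in the infundibulum, the funnel at the ovarian end of the mouse oviduct. Members were chosen by symbol, as every row named Septin2 to Septin11 in a table of 54256 gene rows. This gave 11 rows for 10 genes, since Septin2 has 2 rows, and 10 of the 11 rows had at least 1 TPM in at least 5 libraries and were fitted among 16131 rows. The family was picked because the smaller Septin2 row stood out between the groups in earlier results of these libraries. The values of both Septin2 rows in that contrast are therefore given as a description, with no test.

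The tested animals received recombinant murine prolactin (rmPRL) and the others saline, in both cases for 7 days. All were C57BL/6 mice aged 8 to 10 weeks, with no transgene or other agent named, and the saline animals are labelled WT. Each of the 5 rmPRL and 5 saline libraries pooled 4 infundibula from 2 animals. By the labels the estrous stage was proestrus in 9 libraries and diestrus in rmPRL library 2, so stage and individual library cannot be told apart there. Values are TPM, transcript levels per fixed total, a unit meant to correct for transcript length. How these TPM were computed is not stated, so levels of different genes are compared here with that limit. Each library summed to between 999445 and 999607 TPM and had between 15975 and 16615 rows at 1 TPM or more, while the reads behind a value are unknown because TPM keep no depth. The summed secretory epithelium markers (Ovgp1, Pax8, Krt8 and Epcam) lay between 5519 and 9726 TPM in rmPRL and between 8018 and 10890 TPM in saline, and the summed multiciliated cell markers between 2945 and 3511 TPM in rmPRL and between 2412 and 3789 TPM in saline, so the defining markers of oviduct epithelium were present throughout. Markers of ovarian luteal and theca cells summed to 418 TPM in rmPRL library 2 and 363 TPM in saline library 4, and to at most 57.6 TPM in the other libraries. In tissue pieces of this kind, fewer cells of a type and less RNA per cell cannot be told apart.

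Septins assemble into rod-shaped hetero-oligomers that join end to end into filaments and rings. They bind membranes, actin and microtubules, and they act at the cleavage furrow and as diffusion barriers, including at the base of cilia, the organelles that cover much of the infundibular epithelium. Rods are built from members of separate subgroups: Septin7, which has a subgroup to itself, the SEPT2 subgroup (Septin2, Septin4 and Septin5 among the members), the SEPT6 subgroup (Septin6, Septin8, Septin10 and Septin11) and the SEPT3 subgroup (Septin3 and Septin9), whose subunits sit at fixed kinds of positions in the rod.

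The finding turns on how the Septin2 gene is divided into rows, so its gene models are shown first. In GENCODE vM21 on GRCm38 the longer record (ENSMUSG00000026276.20, chromosome 1, 93478964 to 93510260, plus strand) has 13 transcripts, of which 1, Septin2-201, runs to its last base. The shorter record (ENSMUSG00000116048.1, chromosome 1, 93478993 to 93509733, plus strand) has 3 transcripts, Septin2-214, Septin2-215 and Septin2-216. All 14 splice junctions of the shorter record are among the 21 of the longer one. Of its 3335 exonic bases, 0 are exonic in it alone, whereas 4644 bases are exonic only in the longer record. Many of these 4644 bases are not in the full-length Septin2-201. The longer record has 3 retained-intron transcripts, and 1 of them, Septin2-213, is a single exon from 95 to 3404 bases after the record's first base. The records begin 29 bases apart and end 527 bases apart, the longer one having the longer last exon. The values of these rows therefore rest on how reads from shared exons were divided, a step that no source used here describes.

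The full-length transcripts differ at their first splice. Each is shown as 30 bases of spliced RNA (as DNA letters) around the join of the first and second exons, 5′ to 3′ on the plus strand, with the second exon in capitals. These are GENCODE vM21 transcript sequences and are printed because this join is the main sequence difference upstream of the last exon.
Septin2-201 (longer record): ccggcgtgtgagcggATAGACAGGAAAATC
Septin2-216 (shorter record): ccggcgtgtgagcggACAGGAAAATCAAGA
Septin2-215 (shorter record): ccggcgtgtgagcggCAACAACCAACTCAG
Septin2-214 (shorter record): aggcggtgataacggATAGACAGGAAAATC
Septin2-201 joins position 93479068 to 93489124 of chromosome 1. Septin2-216 uses the same first-exon end but joins to 93489128, so its second exon has 27 bases against 31 in Septin2-201. Septin2-215 skips that exon and joins to 93491157, and Septin2-214 ends its first exon later, at 93479180. Each of the joins of the shorter record's transcripts is also annotated in 1 transcript of the longer record that stops before the last exon. The coding sequences of Septin2-214 and Septin2-216 are identical to that of Septin2-201, at 1083 bases or 361 codons before the stop. Septin2-215 has 963 coding bases, 321 codons, which match the end of the same reading frame, so its open reading frame lacks the first 40 codons.

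**Figure D1:**
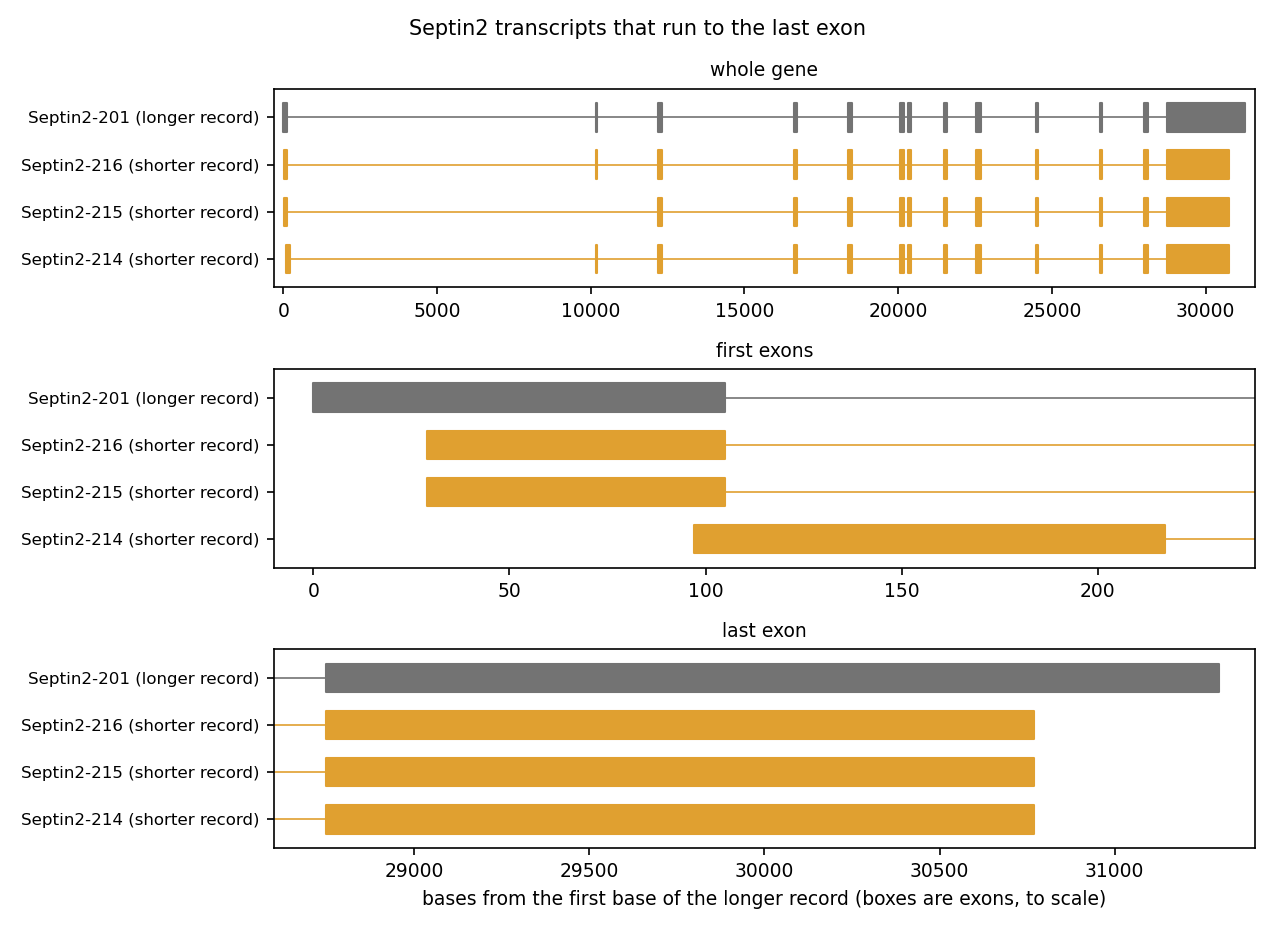
Exons (boxes, to scale) of the 4 Septin2 transcripts that run to the last exon, against distance in bases from the first base of the longer record, for the whole gene and enlarged for the first and last exons. The 3 transcripts of the shorter record start 29 or more bases later and end 527 bases earlier than Septin2-201.

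The records begin 29 bases apart, so the same upstream stretch lies at the start of both. The 250 bases before the RefSeq start site at 93478993, which is also the first base of the shorter record, are chr1:93478743-93478992 (RefSeq, GRCm38.p6, plus strand). They are shown because they lie at the start of both records, with capitals marking the 29 bases that belong to the first exon of the longer record. Whether they drive either record was not tested.
Septin2 promoter: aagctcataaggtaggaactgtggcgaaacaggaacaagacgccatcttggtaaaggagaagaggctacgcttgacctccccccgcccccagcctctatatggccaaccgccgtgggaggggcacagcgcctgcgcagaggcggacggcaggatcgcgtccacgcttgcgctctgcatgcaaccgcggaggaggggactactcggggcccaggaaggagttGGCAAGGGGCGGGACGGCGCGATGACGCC
A second RefSeq start site, at 93479061, is the first base of Septin2-214. RefSeq windows of 300 bases, from 250 before to 50 after a start, were found for 7 of the 10 members, in 16 windows. The STAT site TTCNNNGAA, a palindrome read once for both strands, was in 0 of these 16 windows and in 8.30% of 32851 windows of all genes. The GC box GGGCGG, on either strand, was in 10 of the 16 windows, against 35.7% of all windows; the first Septin2 window had 65.7% G and C, where the median over all windows was 52.7%. These are matches of letters in a window and say nothing of which factors bind there.

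The shorter Septin2 record was higher in rmPRL and the longer record lower, while their sum differed little. Septin2 is a core subunit of septin rods. The shorter record measured 50.6, 71.0, 69.8, 67.9 and 75.3 TPM in rmPRL 1 to 5, against 26.8, 31.4, 28.3, 34.9 and 31.3 TPM in saline 1 to 5. The lowest rmPRL library, number 1, was above the highest saline library, and the other rmPRL libraries lay close together. The means were 66.9 ± 9.53 TPM in rmPRL and 30.5 ± 3.16 TPM in saline (SD, n = 5 each), a ratio of 2.19. The longer record measured 65.3, 70.7, 60.7, 60.6 and 74.2 TPM in rmPRL 1 to 5, against 86.5, 94.0, 85.1, 109 and 95.8 TPM in saline 1 to 5. Every rmPRL library was below every saline library for this record, with a ratio of means of 0.705. This contrast led to the choice of the family, so nothing is read from the absence of overlap.

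Within a library, the shorter record was above the longer one in 4 of 5 rmPRL libraries and in 0 of 5 saline libraries. Its share of the Septin2 sum was 43.6%, 50.1%, 53.5%, 52.8% and 50.4% in rmPRL libraries 1 to 5, against 23.6% to 25.0% in the saline libraries. The saline shares spread over less than the rmPRL shares did, with an SD of 0.578 percentage points in saline and 3.89 percentage points in rmPRL (n = 5 each). The sum of both records measured 116, 142, 130, 128 and 150 TPM in rmPRL 1 to 5, against 113, 125, 113, 144 and 127 TPM in saline 1 to 5. The groups overlapped for the sum, and 4 of 5 rmPRL libraries lay within the saline range. The means of the sum were 133 ± 12.9 TPM in rmPRL and 125 ± 12.5 TPM in saline (SD, n = 5 each). On the log2(TPM + 1) scale the sum differed by 0.10.

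Septin2 was 1 of 18 symbols that had more than 1 tested row. For each symbol the share of its rows was compared between the groups, as a description. The share of the longer Septin2 record differed by -25.6 percentage points (49.9% in rmPRL, 75.5% in saline), the second-largest difference of the 18 after Nnt, whose row differed by 28.8 points with overlapping groups. Septin2 was the 1 symbol of the 18 whose groups did not overlap in share. Its share comes from the rows whose contrast led to the choice of the family. Nothing is read from its rank or its lack of overlap.

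**Figure D2:**
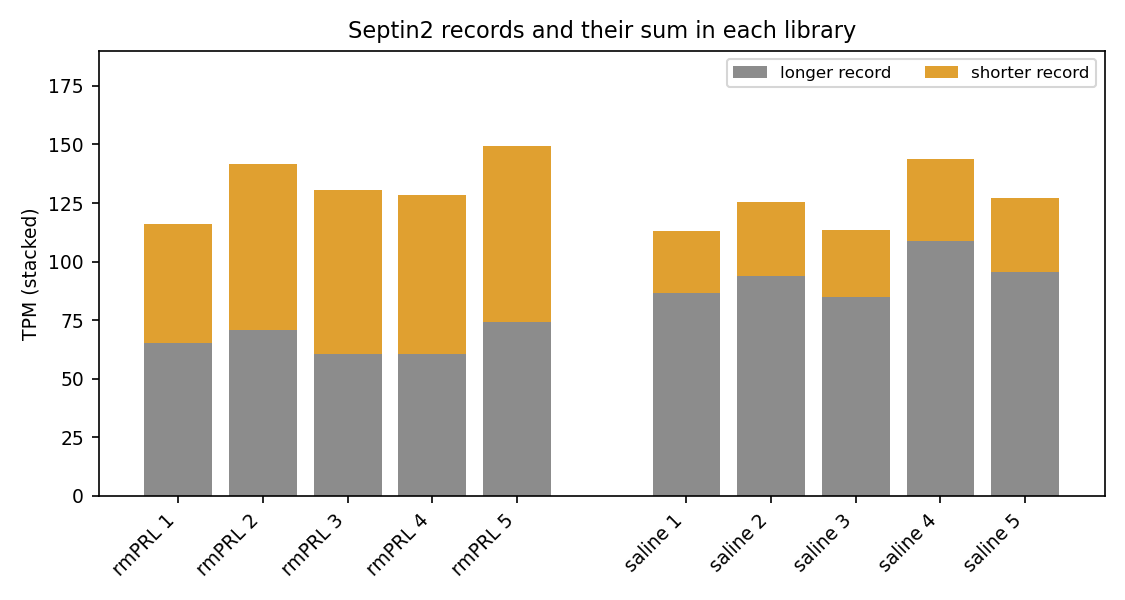
Stacked bars give TPM of the longer (grey) and shorter (orange) Septin2 records in each of the 5 rmPRL and 5 saline libraries. The total height spans 116 to 150 TPM in rmPRL and 113 to 144 TPM in saline, while the orange part holds 43.6% to 53.5% in rmPRL and 23.6% to 25.0% in saline.

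The rows with profiles most like that of the shorter Septin2 record were found by the root-mean-square difference between profiles of log2(TPM + 1), each centred on its own mean, over the 10 libraries. A flat profile would lie at 0.57. The 5 nearest were Gm17066 at 0.27, Gm28438 at 0.29, and Gar1, Gm10282 and Timm8a1 at 0.31, 0.31 and 0.32. Gar1, a protein of box H/ACA small nucleolar ribonucleoproteins, measured 65.3, 83.4, 64.9, 91.8 and 73.6 TPM in rmPRL 1 to 5, against 45.6, 42.1, 53.0, 54.2 and 51.7 TPM in saline 1 to 5. Timm8a1, a chaperone for import into mitochondria, averaged 32.9 ± 5.03 TPM in rmPRL and 22.2 ± 2.51 TPM in saline (SD, n = 5 each). The groups did not overlap for any of the 5, which follows from a likeness to a record with that pattern.

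The members covered a range from over 100 TPM to under 1 TPM. Septin7 stood highest with a mean of 139 TPM over all 10 libraries, above the Septin2 sum at 129 TPM in 8 of 10 libraries, and the ranges of these overlapped. Septin9 (84.5 TPM), Septin8 (56.5 TPM), Septin5 (45.1 TPM), Septin10 (32.5 TPM), Septin11 (17.4 TPM), Septin6 (6.48 TPM), Septin4 (5.47 TPM) and Septin3 (0.330 TPM) followed. In this order the ranges of Septin8 and Septin5, of Septin5 and Septin10, and of Septin6 and Septin4 overlapped. Within libraries, Septin8 was above Septin5 in 8 of 10 and Septin5 above Septin10 in 8 of 10. Septin6 was above Septin4 in 9 of 10. The place of Septin5 rests on how reads were divided between it, Gm49601 and Gp1bb, which share its exons. The 3 rows together averaged 61.4 TPM in rmPRL and 68.3 TPM in saline. The Septin2 sum and Septin9, Septin9 and Septin8, Septin10 and Septin11, Septin11 and Septin6, and Septin4 and Septin3 were in the stated order in 10 of 10 libraries with ranges apart. Of the family genes that are not members here, Septin1 passed the filter, at 8.09 TPM in rmPRL and 8.31 TPM in saline, and Septin12 and Septin14 did not pass it.

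**Figure D3:**
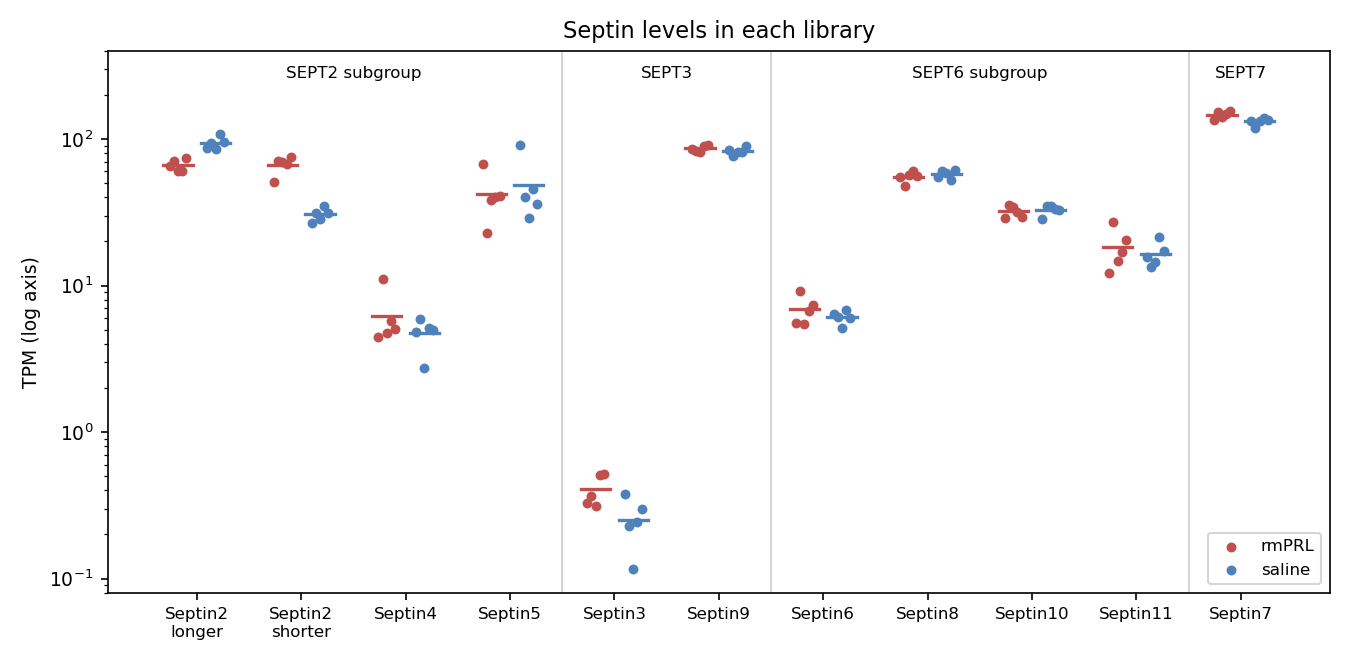
TPM on a log axis for each septin row, 1 point per library with the group mean as a line, rmPRL in red and saline in blue (n = 5 each), ordered by subgroup. The groups are apart for the 2 Septin2 rows and overlap for the other 9, whose levels run from Septin3 at 0.115 to 0.518 TPM up to Septin7 at 119 to 155 TPM.

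By subgroup, the SEPT2 genes together held 34.5% ± 1.61 of the septin TPM in rmPRL and 35.0% ± 3.35 in saline, with both Septin2 records counted. Septin7 alone held 27.7% ± 0.792 in rmPRL and 26.1% ± 1.37 in saline. The SEPT6 genes held 21.4% ± 1.15 in rmPRL and 22.4% ± 1.73 in saline, and the SEPT3 genes 16.4% ± 0.535 in rmPRL and 16.4% ± 0.919 in saline (SD, n = 5 each in all cases). Each of these shares differed by less than 2 percentage points between the groups. All members together summed to 527 ± 19.4 TPM in rmPRL and 505 ± 26.2 TPM in saline (SD, n = 5 each).

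None of the 8 tested septin rows other than Septin2 passed the threshold of an adjusted p under 0.05, by limma on log2(TPM + 1) with Benjamini-Hochberg adjustment over all 16131 rows (two-sided), against 0.0248% of all tested rows. Their adjusted p ran from 0.267 to 0.827. The groups overlapped for all 8, whereas they did not overlap for 3.07% of all tested rows. At an unadjusted p under 0.05 there was 1 of the 8, Septin7, against 16.0% of all tested rows. The mean was higher in rmPRL for 5 rows and lower for 3, under TPM as deposited and under 3 other scalings; of all tested rows, 43.5% had a higher mean in rmPRL as deposited. The median log2 difference of the 8 rows was 0.08, beside -0.03 for all tested rows. A p that misses the threshold does not show that levels were equal, and the intervals below give the range of differences these libraries allow.

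Septin7, the subunit present in most septin rods, measured 135, 152, 140, 147 and 155 TPM in rmPRL 1 to 5, against 134, 119, 133, 138 and 136 TPM in saline 1 to 5. The rmPRL values were higher on average, but rmPRL library 1 lay below saline libraries 4 and 5, so the groups overlapped. The log2 difference was 0.15 (SE 0.058, 95% interval 0.019 to 0.27, limma adjusted p = 0.267). Without saline library 2, the lowest at 119 TPM, it was 0.11 (limma adjusted p = 0.489).

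In the SEPT6 subgroup, Septin8 and Septin10 varied less over the libraries, relative to their means, than Septin6 and Septin11 did. Septin8 averaged 55.3 ± 4.84 TPM in rmPRL and 57.6 ± 3.79 TPM in saline (SD, n = 5 each); the 95% interval of its log2 difference, -0.060, was -0.22 to 0.095. Septin10 averaged 32.0 ± 2.92 TPM in rmPRL and 32.9 ± 2.65 TPM in saline (SD, n = 5 each); the 95% interval of its log2 difference, -0.038, was -0.21 to 0.13. The lowest Septin8 value was 47.6 TPM, in rmPRL library 2, and the lowest Septin10 value 28.5 TPM, in saline library 1. The highest Septin10 value, 35.7 TPM, was also in rmPRL library 2.

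Septin11, a partner of Septin7 in many tissues, measured 12.1, 27.3, 14.7, 16.8 and 20.5 TPM in rmPRL 1 to 5, against 15.7, 13.5, 14.5, 21.4 and 17.2 TPM in saline 1 to 5. The highest library of each group was the one with high luteal markers, rmPRL 2 and saline 4. The next value, 20.5 TPM, was in rmPRL library 5, where the luteal and theca markers summed to 20.4 TPM. The log2 difference was 0.11 (95% interval -0.31 to 0.53, limma adjusted p = 0.794), and it was -0.041 without rmPRL library 2.
Septin6 measured 5.56, 9.18, 5.50, 6.66 and 7.41 TPM in rmPRL 1 to 5, against 6.42, 6.08, 5.13, 6.81 and 6.03 TPM in saline 1 to 5. Again rmPRL 2 and saline 4 were the highest of their groups, but rmPRL 5, at 7.41 TPM, was above saline 4. Its log2 difference was 0.13 (95% interval -0.15 to 0.42, limma adjusted p = 0.618), and it was 0.034 without rmPRL library 2.
Cyp11a1, which starts steroid synthesis in luteal and theca cells, was at 125 TPM in rmPRL library 2 and 135 TPM in saline library 4, and at most 6.27 TPM in the other libraries. The summed granulosa cell markers were also highest in these libraries, at 277 TPM in rmPRL 2 and 138 TPM in saline 4, and at most 52.5 TPM elsewhere. The part of these cells in the septin values was not tested, and rmPRL 2 is also the diestrus library.

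Septin4 belongs to the SEPT2 subgroup and has a known splice product, ARTS, that binds the apoptosis inhibitor Xiap. It measured 4.44, 11.1, 4.77, 5.76 and 5.06 TPM in rmPRL 1 to 5, against 4.81, 5.93, 2.74, 5.14 and 4.98 TPM in saline 1 to 5. The library that stood out was rmPRL 2, above the other 9. Without that library, the rmPRL mean was 5.01 ± 0.564 TPM (SD, n = 4), against 4.72 ± 1.19 TPM in saline (SD, n = 5). The log2 difference was 0.30 over all libraries (95% interval -0.21 to 0.80, limma adjusted p = 0.521), 0.095 without rmPRL library 2 and 0.15 without saline library 3. Splice forms of Septin4 were not separated in the table.

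**Figure D4:**
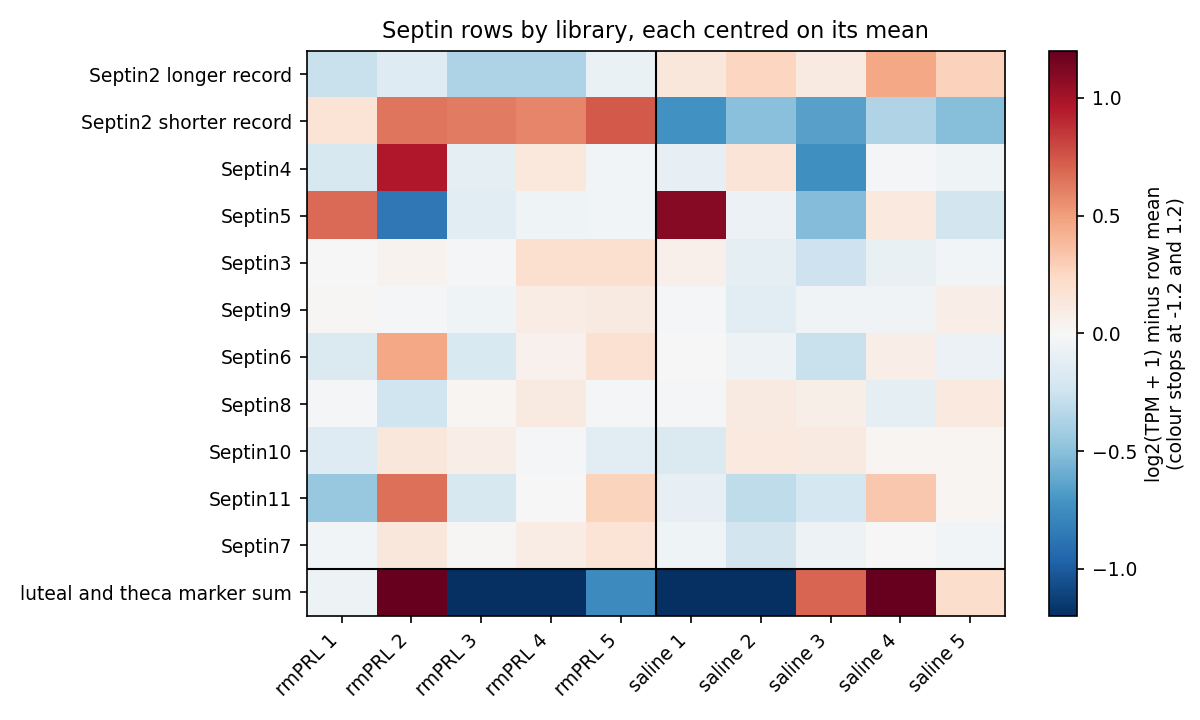
Each cell gives log2(TPM + 1) minus the row's mean over the 10 libraries for the 11 septin rows, with the luteal and theca marker sum as the last row (rmPRL libraries left, saline libraries right). Septin4, Septin6, Septin10 and Septin11 are highest in rmPRL 2, where the marker sum was 418 TPM, and Septin5 and Septin8 are lowest there. Septin5 is highest in saline 1 and rmPRL 1.

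Septin5, best known from neurons and platelets, was the member with the widest spread among those above 10 TPM. It measured 68.0, 22.8, 38.2, 40.5 and 41.1 TPM in rmPRL 1 to 5, against 90.5, 40.0, 28.9, 45.5 and 35.9 TPM in saline 1 to 5. Library 1 was the highest of each group and rmPRL library 2 the lowest of all. The log2 difference was -0.15 (95% interval -0.86 to 0.55, limma adjusted p = 0.827), and it was 0.098 without saline library 1 and 0.039 without rmPRL library 2, so its sign rests on single libraries.

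The Septin5 row also shares exons with others on its strand. The gene (ENSMUSG00000072214.7, GRCm38 chromosome 16, 18620502 to 18629954, minus strand) has 3915 exonic bases. Of these, 2206 are also exonic in Gm49601 and 1902 in Gp1bb. Gp1bb, a platelet glycoprotein gene at 18620317 to 18622403, overlaps the downstream end of Septin5. Gm49601 measured 25.7, 13.8, 16.8, 20.1 and 17.3 TPM in rmPRL 1 to 5, against 26.7, 18.6, 15.0, 18.3 and 17.3 TPM in saline 1 to 5. It was highest in library 1 of each group, as Septin5 was. Septin5 held 62.2% to 71.3% of the sum of the 3 rows in rmPRL and 65.8% to 74.8% in saline, so the division of this locus between rows overlapped between the groups, unlike that of Septin2. Gp1bb reached 1.64 TPM in rmPRL library 1 and 3.89 TPM in saline library 1, its highest value in each group. Summed markers of neurons and glia ran from 56.2 to 71.7 TPM in rmPRL and from 56.0 to 74.0 TPM in saline. S100b made up most of this sum in every library, at 37.3 TPM or more. The neuronal markers Tubb3 and Snap25 did not pass the filter, so the sum says little of neurons. Summed platelet markers (Gp1bb is 1 of the 4) ran from 23.0 to 32.5 TPM in rmPRL and from 23.4 to 33.0 TPM in saline. Most of the platelet sum was Pf4 and Itga2b, which differed in opposite directions. Pf4 averaged 13.3 TPM in rmPRL and 7.89 TPM in saline, and Itga2b 14.7 TPM in rmPRL and 17.8 TPM in saline. Without Gp1bb, the platelet sum was 30.9 TPM in rmPRL library 1 and 32.0 TPM in rmPRL library 5, the highest of that group, and 29.1 TPM in saline library 1, the highest of its group. The part of platelets in the Septin5 values was not tested.

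In the SEPT3 subgroup, Septin9, whose protein can bind and bundle microtubules, had the smallest relative spread of all members. It measured 85.2, 83.3, 81.1, 89.9 and 91.3 TPM in rmPRL 1 to 5, against 83.7, 77.1, 82.0, 81.8 and 89.2 TPM in saline 1 to 5, with an SD of 5.30% of the mean over all 10 libraries. The groups overlapped, with a log2 difference of 0.058 (95% interval -0.060 to 0.18, limma adjusted p = 0.595). Septin3, a mainly neuronal septin, was at 0.313 to 0.518 TPM in rmPRL and at 0.115 to 0.380 TPM in saline. It stayed under 1 TPM in all 10 libraries and was not tested.

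**Figure D5:**
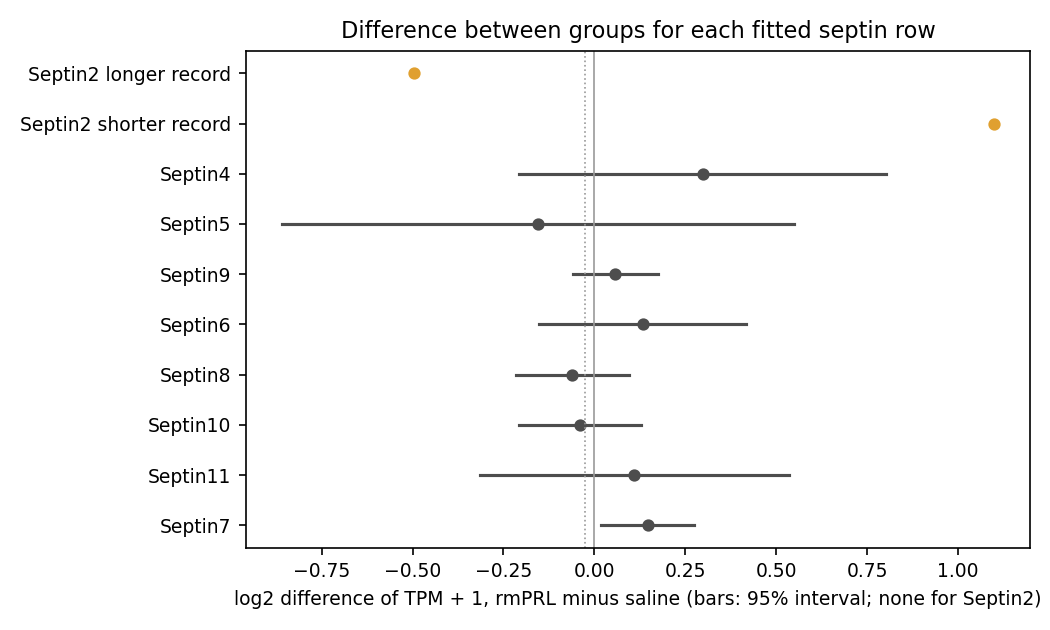
Log2 difference of TPM + 1 (rmPRL minus saline) for the 10 fitted septin rows, with its 95% interval for the 8 other than Septin2; the solid line marks 0 and the dotted line the median of all tested rows at -0.03. The orange Septin2 rows, which led to the choice of the family and are shown with no interval, lie at 1.10 and -0.50, and the other 8 lie between -0.15 and 0.30.

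Genes that work with septins were taken from 6 lists. Of the 53 genes tested on these lists, 0 passed the limma threshold over all rows; 7 (13.2%) had an unadjusted p under 0.05, against 16.0% of all tested rows, and the groups did not overlap for 4 (7.55%), against 3.07% of all tested rows. Their median log2 difference was -0.050, near the -0.03 of all rows.

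Cdc42, the small GTPase whose effectors organise septin filaments, averaged 316 TPM in rmPRL and 265 TPM in saline, without overlap between the groups (log2 difference 0.25, SE 0.065, limma adjusted p = 0.171). Cdc42ep3, one of the effectors that bind septins, averaged 26.6 TPM in rmPRL and 33.8 TPM in saline, also without overlap (log2 difference -0.33, SE 0.097, limma adjusted p = 0.199). Of this list of 6, 3 had a higher and 3 a lower mean in rmPRL.
Among 9 genes of non-muscle actomyosin, on which septins act as scaffolds, 6 had a higher and 3 a lower mean. Myl12a, a regulatory light chain, averaged 262 TPM in rmPRL and 225 TPM in saline (limma adjusted p = 0.200), and Myh10, a heavy chain, 51.7 TPM in rmPRL and 47.1 TPM in saline (limma adjusted p = 0.325).
Of 8 genes of cytokinesis, 2 had a higher and 6 a lower mean. Cit, the citron kinase, averaged 1.53 TPM in rmPRL and 2.08 TPM in saline (limma adjusted p = 0.258), and Rhoa 303 TPM in rmPRL and 273 TPM in saline (limma adjusted p = 0.301). Anln, the scaffold that recruits septins to the furrow, averaged 5.36 TPM in rmPRL and 6.00 TPM in saline, and was chosen for its role after its values were seen.

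The cilium transition zone and its CPLANE regulators, which have been tied to septins at the base of cilia, had lower means in rmPRL for 14 of 17 genes, under all 4 scalings. Of all tested rows, 56.5% had a lower mean in rmPRL as deposited and 50.9% to 51.6% under the 3 other scalings. The median log2 difference of these genes was -0.086, and 0 had an unadjusted p under 0.05. Cc2d2a averaged 33.5 TPM in rmPRL and 38.3 TPM in saline (limma adjusted p = 0.312). Cplane2 averaged 5.09 TPM in rmPRL and 6.26 TPM in saline (limma adjusted p = 0.331). The exocyst, a tethering complex for secretion that binds septins, was split at 4 higher and 4 lower means. Exoc7 averaged 35.7 TPM in rmPRL and 40.2 TPM in saline without overlap (log2 difference -0.16, limma adjusted p = 0.217), and Exoc5 21.2 TPM in rmPRL and 17.8 TPM in saline (limma adjusted p = 0.292). Of 5 calcium entry and apoptosis regulators, 3 had a higher and 2 a lower mean; Stim1, a calcium sensor, averaged 33.7 TPM in rmPRL and 36.2 TPM in saline (limma adjusted p = 0.432), and Orai1, its channel, 7.60 TPM in rmPRL and 6.63 TPM in saline (limma adjusted p = 0.483).

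Means of stromal, immune and secretory epithelium markers differed between the groups without passing the threshold. Of 6 fibroblast markers, 6 had a higher mean in rmPRL, with sums from 877 to 1976 TPM in rmPRL and from 538 to 1360 TPM in saline. The secretory epithelium markers (Ovgp1, Pax8, Krt8 and Epcam), 4 of 4, had lower means, and Krt8 and Epcam are not specific to secretory cells. The macrophage marker sum ran from 30.2 to 47.1 TPM in rmPRL and from 24.4 to 42.0 TPM in saline. None of these markers passed the threshold over all rows (limma, smallest adjusted p = 0.185 among all marker lists). The part of the cell mixture in the septin values was not tested.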

How the data were processed

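Per the series' design text and the submitters' processing notes, the steps were FastQC for quality checks, Trimmomatic for trimming (quality threshold 15, minimum length 20 bases), HISAT2 with SAMtools for alignment to mm10, featureCounts for counting and DESeq2 for the authors' own comparison. Libraries came from a stranded mRNA kit and were read as 100-base pairs, with 80 M reads stated per sample. Per the file headers, the deposited table holds TPM, which the authors call scaled TPM. No source used here says how these were computed, from which annotation, or how reads of overlapping genes were divided. Because TPM carry no depth, count models and counting errors were left out.

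Rows that reached 1 TPM in 5 or more of the 10 libraries were fitted with limma 3.58.1 in R 4.3.3 on log2(TPM + 1), a scale that understates changes of low genes, with trend and robust estimation, group as the single term and a Benjamini-Hochberg threshold of 0.05. Errors beside log2 differences are standard errors. The script was tested on simulated data. Gene models came from GENCODE vM21 (GRCm38, the assembly of mm10): 54086 of 54256 identifiers matched and 53525 had the same version; the Septin3 and Septin4 versions differed and the other member versions matched. Sequences are those of GENCODE and RefSeq. Replicates were separate pools of animals. Septin members, gene lists, alternatives and the naming rule were chosen with earlier results of these data known. The rule named all members, the rows most like the shorter Septin2 record and, per list, the pair with the smallest p. Septin2 rows stayed in the fit across all rows, but no test outcome is reported for them. Alternatives were other pseudocounts, no filter, 3 scalings, plain moderation, array weights, a replicate block, summed rows of a symbol and left-out libraries. Figures were drawn with matplotlib 3.10.9.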

Additional observations from a re-analysis of the deposited data

Results flagged for a closer look

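In 26 checks of a group of 5 libraries, 1 library stood far from the others in 3, by the ratio of its gap to the group's range against Dixon's 95% critical value; chance gives about 1 in 20. Septin7 was at 119.0 TPM in saline library 2, where the other saline libraries lay from 133 to 138 TPM. Septin4 was at 11.07 TPM in rmPRL library 2, where the other rmPRL libraries lay from 4.44 to 5.76 TPM. Septin5 was at 90.49 TPM in saline library 1, where the other saline libraries lay from 28.9 to 45.5 TPM.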

How the results depend on the processing

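The count of rows past the threshold was 4 and rested on single libraries and settings: it was 270 with array weights, 0 with no filter on low values (limma, 3276 rows at an unadjusted p under 0.05), 0 without saline 4 and rmPRL 2 (limma, 2081 at an unadjusted p under 0.05), 2 with the replicate block, and from 1 to 17 with single libraries left out, highest without rmPRL library 1. The replicate numbers did not pair the libraries: correlations of same-numbered deviations ran from -0.25 to 0.11, and 0 of 5 rmPRL libraries correlated best with their own number. The split of rows at an unadjusted p under 0.05 was 61.7% lower in rmPRL as deposited and 47.4% lower after median-of-ratios scaling, while these scalings changed the sign of 0 septin rows. The difference in share of the shorter Septin2 record ran from 24.7 to 27.2 percentage points and the log2 difference of the Septin2 sum from 0.053 to 0.15 over 13 settings each. Of 209 values of single septin rows under alternatives, 5 changed sign: Septin11 without rmPRL 2 (-0.041), and Septin5 with array weights (0.045), without rmPRL 2 (0.039), without saline 4 and rmPRL 2 (0.048) and without saline 1 (0.098). With single libraries left out, Septin11 ran from -0.041 to 0.24, Septin5 from -0.34 to 0.098, Septin4 from 0.095 to 0.38, Septin6 from 0.034 to 0.20, Septin8 from -0.096 to -0.0085 and Septin10 from -0.087 to -0.0038. Septin7 ran from 0.11, without saline 2, to 0.17, and Septin9 from 0.033 to 0.085. Under no alternative did a septin row other than Septin2 pass the threshold, with limma adjusted p of 0.119 or above. Counting error is unknown, which limits Septin3 most.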
